A study of Sus scrofa with 4 samples.

Results

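A family of closely related sequence tags was followed through 4 libraries of pig skeletal muscle. The family was built around 1 tag, here called the seed, which was chosen by its counts of 12, 13, 12 and 97 in the libraries. Every tag within 3 mismatches of the seed over its 17 bases was taken as a member. This gave 128 members among the 17902 different tags of the 4 libraries, and 510 of the 53120 tags counted (0.960%). Because the seed was selected on its library counts, the counts of the seed and of the family by library are given as a description, with no test. The label of a repeat-like family was checked only against the sequences themselves, since no repeat consensus or genome was used here.

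In SAGE (serial analysis of gene expression), short tags are cut out of transcripts beside the CATG site nearest their 3′ end, joined in pairs, sequenced and counted. They came from Longissimus dorsi biopsies of 2 castrated male pigs, a purebred Large White animal and a Landrace x Duroc animal (called Dunel in the labels), each taken at 3 and at 9 months of age. Each animal was 1 of 10 reared in its line under the same housing and feeding, and the pair was picked on live weight and daily gain as the fattest Large White and the leanest Landrace x Duroc, per the series' design text. There was 1 library per animal and age and there were no replicates, so age within an animal, the animal, its line and the library cannot be told apart. An age field of the labels gives 3 months for all 4 samples and disagrees with the titles, which were followed. The tissue was not checked against marker genes, because tags were not matched to genes.

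Short interspersed elements are repeats copied through an RNA intermediate, and the pig genome carries many copies of one derived from a transfer RNA gene, PRE-1. Copies of such an element start out alike and drift apart by base substitutions. In CpG dinucleotides, methylated cytosine is lost to thymine faster than other bases change, which reads as C-to-T on one strand and G-to-A on the other. Elements of this kind hold an internal promoter for RNA polymerase III with an A box and a B box, but they are also carried inside introns and untranslated ends of ordinary messenger RNAs, where a polyadenylated transcript brings them into a tag library.

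The seed and its 12 most frequent relatives carry the pattern described here and are given 5′ to 3′ as the bases that follow CATG. Capitals mark the 4 bases of the 2 CpG dinucleotides in the seed, and in each other member the bases that differ from the seed.
seed: aggttgCGggttCGgtc
member 1, G15A: aggttgcgggttcgAtc
member 2, G8A G15A: aggttgcAggttcgAtc
member 3, C7T G15A: aggttgTgggttcgAtc
member 4, G8A: aggttgcAggttcggtc
member 5, C7T: aggttgTgggttcggtc
member 6, G6T G8A: aggttTcAggttcggtc
member 7, G14A: aggttgcgggttcAgtc
member 8, T5C: aggtCgcgggttcggtc
member 9, G14A G15A: aggttgcgggttcAAtc
member 10, G8A G14A G15A: aggttgcAggttcAAtc
member 11, C13T: aggttgcgggttTggtc
member 12, C13T G15A: aggttgcgggttTgAtc
In each name the seed's base comes first, then the position counted from 1 at the first base after CATG, then the member's base. The 12 relatives held 190 tags, 50.5% of the 376 tags of members other than the seed. All of the listed changes except T5C and G6T fall on the 4 CpG bases or on position 15.

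The libraries held 13590 and 12980 tags (Landrace x Duroc at 3 and 9 months) and 13130 and 13420 tags (Large White at 3 and 9 months). A tag with a count of 0 could still make up to 0.0221% to 0.0231% of a library, which is 3 counts of its total. As a whole, the library of Large White at 9 months stood apart. It held 7665 different tags against 4437 to 5241, and 49.3% of its tags were single copies, against 25.8% to 32.5% elsewhere. How much of the family's values this moves with was not tested.

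In Large White at 9 months, family tags took 2.73% of the library (366 tags, 95% Wilson interval 2.46% to 3.02%). It made up 0.353% of the Landrace x Duroc library at 3 months (48 tags, 0.267% to 0.468%) and 0.347% at 9 months (45 tags, 0.259% to 0.464%). In the Large White library at 3 months its share was 0.388% (51 tags, 0.296% to 0.510%). The shares of these other 3 libraries lay close together and their intervals overlapped, while the Large White 9 month share lay outside all of them. That share was 7.72 times that of Landrace x Duroc at 3 months (5.72 to 10.4), 7.87 times that at 9 months (5.78 to 10.7) and 7.02 times that of Large White at 3 months (5.24 to 9.40). TMM library sizes, which take the middle of the tags with 10 or more copies as level, raised these 3 ratios to 12.02, 12.99 and 10.16. Between the Landrace x Duroc libraries the ratio of 9 over 3 months was 0.982 (0.654 to 1.47) by total tags. Between the animals at 3 months, Large White over Landrace x Duroc, it was 1.10 (0.742 to 1.63). In all, 71.8% of family tags came from the Large White 9 month library, which held 25.3% of all tags. Intervals here and below are at 95% and cover counting error only, not variation between animals or libraries. They treat tags as independent, but amplified tags without molecular identifiers are not independent molecules, so the intervals can be too narrow.

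**Figure D1:**
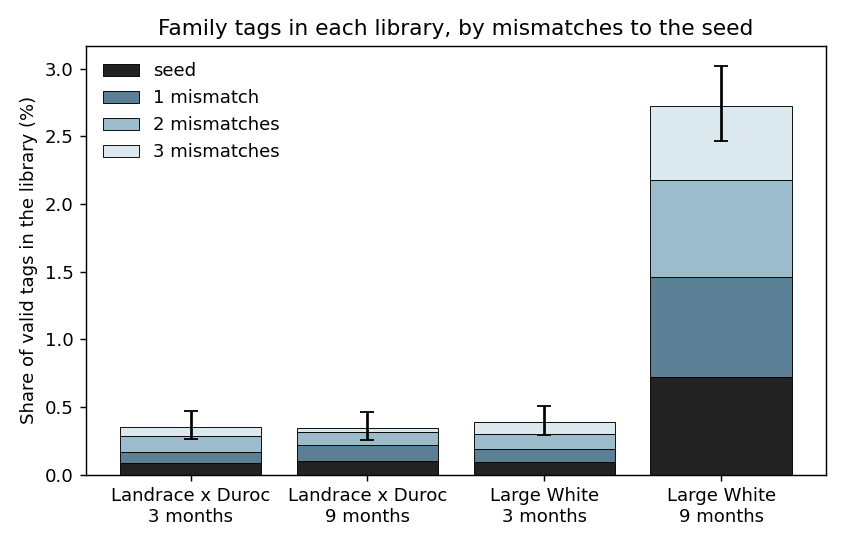
Share of valid tags (percent, vertical axis) taken by the family in each of the 4 libraries, split by the number of mismatches to the seed; error bars are 95% Wilson intervals of the whole family's share. The Large White 9 month library stands at 2.73% and the other 3 between 0.347% and 0.388%, and each shade is larger there.

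Relatives at every distance from the seed shared this layout. The seed had 12, 13, 12 and 97 tags in the order Landrace x Duroc 3 and 9 months, Large White 3 and 9 months. The 25 sequences with 1 mismatch had 11, 15, 13 and 99 tags, the 45 with 2 mismatches had 16, 13, 14 and 96, and the 57 with 3 mismatches had 9, 4, 12 and 74. Against the other 3 libraries pooled, the Large White 9 month share was 7.51 times as high at 1 mismatch, 6.60 times at 2 and 8.76 times at 3. Leaving the seed out of the family gave a ratio of 7.44 (5.95 to 9.30), against 7.52 (6.21 to 9.11) with it. The seed itself made up 25.0%, 28.9%, 23.5% and 26.5% of family tags in the 4 libraries, so its weight within the family was nearly level.

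The limit of 3 mismatches did not coincide with an edge of the family. Beyond it lay 72 sequences at 4 mismatches, with 17, 9, 13 and 61 tags, and 54 at 5 mismatches, with 8, 4, 4 and 42. Their ratios to the pooled libraries were 4.63 and 7.77. The most frequent member at the limit was G8A G14A G15A, with 1, 0, 0 and 6 tags. The most frequent tags just outside were T4A G8A C13T G15A, with 1, 1, 0 and 4 tags, and T4A C7T C13T G15A, with 1, 0, 0 and 5. These combine changes that the members carry singly.

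The seed's G15A form lay nearer to the middle of the cloud than the seed did. Of 17902 tags, 186 others lay within 3 mismatches of G15A, 150 within 3 of G8A G15A and 149 within 3 of C7T G15A, against 127 for the seed. A family drawn around G15A held 187 sequences and shared 120 of the 128 members and 499 of their 510 tags. It added 67 sequences, with 16, 8, 13 and 58 tags. It had 63, 53, 62 and 416 tags in the libraries, and its ratios of shares, Large White 9 months over the other libraries, were 6.69, 7.59 and 6.56. This second drawing was added after the values had been seen.

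Among single members, G15A was the most frequent relative, with 5, 8, 9 and 24 tags in the order of libraries above. It was present in all 4 libraries, and its Large White 9 month count was 3.22 times (1.82 to 5.71) the pooled level of the others, with 0.5 added to each count and scaled to library size. For the seed the same ratio was 7.69 (5.28 to 11.2), and these intervals overlap between 5.28 and 5.71. The seed was chosen on these counts, so the 2 ratios cannot be compared fairly and their difference was not tested. G8A G15A had 1, 2, 3 and 21 tags, a ratio of 9.79 (4.07 to 23.5). C7T G15A had 3, 0, 3 and 15 tags, a ratio of 7.05 (2.82 to 17.6). Both double forms had at most 3 tags in any other library.

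The single CpG changes without G15A were also highest in that library. G8A had 0, 1, 1 and 14 tags and C7T had 1, 1, 0 and 14, which gave each the same ratio of 17.2 (4.48 to 65.7). G14A had 2, 0, 0 and 9 tags and C13T had 0, 0, 1 and 5. T5C, outside the CpG bases, had 1, 2, 0 and 7 tags, and G14A G15A had 0, 1, 2 and 7. With 1 to 3 tags in the other libraries together, the ratios of these rarer forms have wide intervals, and their order cannot be read.

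G6T G8A was the exception. It had 7, 4, 1 and 2 tags, so that 11 of its 14 tags came from the Landrace x Duroc animal, and its ratio was 0.592, with an interval (0.152 to 2.30) that spans 1. Only 4 members were seen in all 4 libraries, and this was one of them, beside the seed, G15A and G8A G15A. Mismatches at position 6 were found in 9 of 48 and 6 of 45 family tags of the Landrace x Duroc animal, and in 2 of 51 and 20 of 366 of the Large White animal. Without G6T G8A these numbers were 2 of 41, 2 of 41, 1 of 50 and 18 of 364, so the difference rested on this member. Most mismatches there were G6T, which 12 members carried with 34 tags.

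**Figure D2:**
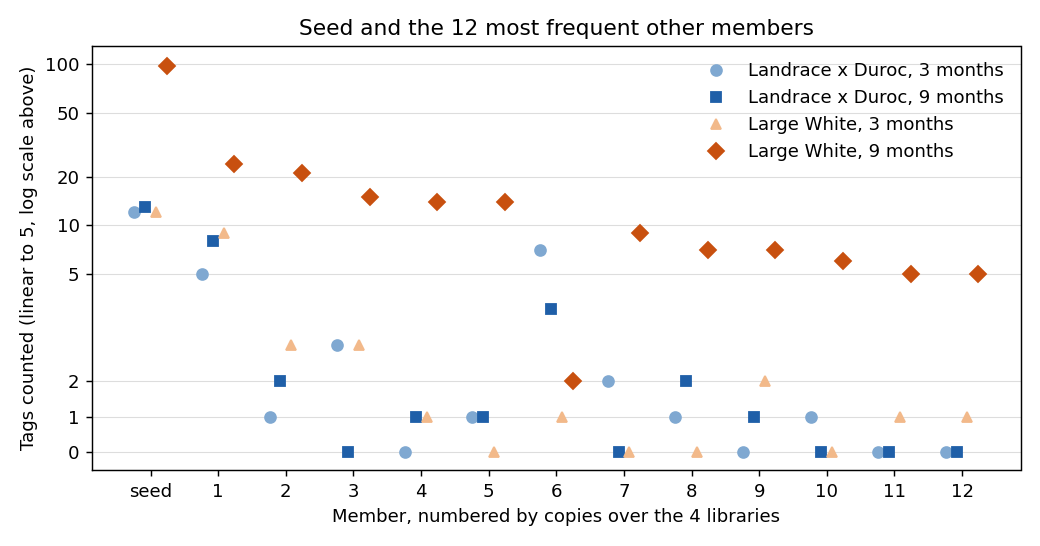
Tag counts (vertical axis, linear to 5 and logarithmic above) of the seed and its 12 most frequent relatives, numbered as in the list of sequences, with 1 point per library. The Large White 9 month point is the highest for every member shown except member 6 (G6T G8A), where Landrace x Duroc at 3 months is highest with 7 tags.

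Counted by a fixed fold, 9 of the 10 members with 10 or more copies were at least 2-fold higher in the Large White 9 month library than in Landrace x Duroc at 3 months, where 17.5% of all 464 tags of that abundance were. The count was again 9 of 10 against Landrace x Duroc at 9 months, where 14.4% of all such tags were past 2-fold, and against Large White at 3 months, where 15.9% were. G6T G8A was the exception in all 3 comparisons. Median log2 differences of the members were 2.66, 2.93 and 2.76, and those of all 464 tags were -0.47, -0.58 and -0.50. Without the seed the counts were 8 of 9 in each comparison. The 3 comparisons share the Large White 9 month library, and the members were selected through their seed in these comparisons. Apart from the seed, G15A and G6T G8A, these members reach 10 copies only with the tags of that library. The counts therefore describe the family and support nothing about it.

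Most members were rare. Over the 4 libraries 80 of the 128 were seen a single time, 38 had 2 to 9 tags and 10 had more than 9. The 128 were spread unevenly, with 23 seen in Landrace x Duroc at 3 months, 20 at 9 months, 26 in Large White at 3 months and 108 at 9 months. They made up 0.446%, 0.451%, 0.496% and 1.41% of the different tags of each library. In all, 98 members were seen in 1 library, 15 in 2 and 11 in 3. Of the 128, 79 (61.7%) were seen in Large White at 9 months alone, which alone held 5897 of all different tags (32.9%). Of the 108 members seen there, 73.1% were seen nowhere else, against 76.9% of all different tags seen there. In the other 3 libraries the shares seen nowhere else were lower among members than among all tags, at 21.7% (5 of 23) against 63.2% and 30.0% (6 of 20) against 58.6% in Landrace x Duroc, and 30.8% (8 of 26) against 62.9% in Large White at 3 months.

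The numbers of members seen lay close together once the libraries were brought to the same number of family tags. At 45 family tags, the number in Landrace x Duroc at 9 months, 25.4 different members were expected from the Large White 9 month library. The other libraries gave 21.9, 20 and 23.6 in the usual order. Single-copy members made up 18.3% of its family tags (14.7% to 22.6%), against 35.4%, 31.1% and 39.2% in the other libraries, where the family was counted less deeply.

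The substitutions that set members apart were concentrated on few bases. Written over the 128 members, counted once each, there were 286 mismatches to the seed, and weighted by tags there were 713. Position 15 differed from the seed in 229 family tags (44.9%), and 226 of these were G15A, carried by 67 members. Position 8 differed in 106 tags, position 7 in 91, position 14 in 73 and position 13 in 39. At positions 1, 2, 3, 9, 10, 11 and 12 between 4 and 11 tags differed. The last bases, 16 and 17, which are read less surely where ditags are short, differed in 22 and 13 tags and added little.

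**Figure D3:**
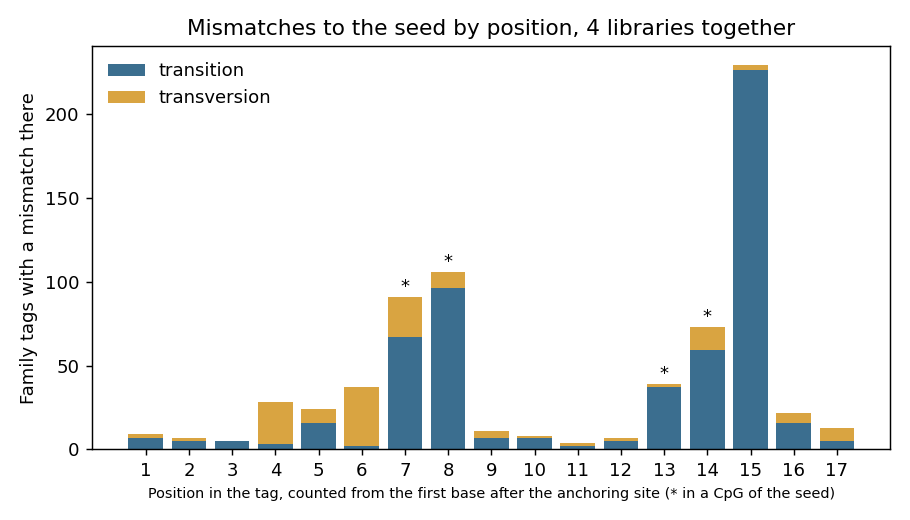
Number of family tags, 4 libraries together, that differ from the seed at each of the 17 positions (horizontal axis, counted from the first base after the anchoring site), split into transitions and transversions; an asterisk marks the 4 CpG bases of the seed. Position 15 stands highest with 229 tags, followed by position 8 with 106 and position 7 with 91.

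Transitions, changes between A and G or between C and T, made up 198 of the 286 mismatches (69.2%) and 565 of the 713 weighted by tags (79.2%). There are 51 possible single changes of a 17-base tag, and 5 of them carried most of the weight. C7T was found in 18 members with 67 tags, G8A in 20 members with 96, C13T in 17 members with 37 and G14A in 20 members with 59. These are the 4 transitions that turn a CpG into TpG or CpA, and together with G15A they made up 485 of the 713 mismatches (68.0%). The 4 CpG transitions alone made up 36.3% and G15A 31.7%. The most frequent transversions were G6T, with 34 tags, and T4A, with 24 tags in 12 members.

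Some combinations of these changes were common and others were not seen. G15A was found with C7T (21 tags), with G8A (27), with G14A (10) and with C13T (6). C7T and G8A would alter the 2 bases of the same CpG. They were not seen together as a pair, and with G15A the combination had 2 tags, both in the Large White 9 month library. C13T with G14A, on the other CpG, was seen in 1 member, T11A C13T G14A, with 1 tag in the same library. Of the 25 combinations that 1 to 3 of the 5 changes allow, 16 were seen, with 15, 14, 21 and 134 tags by library.

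The states of position 15 and of the CpGs were also read as shares of each library's family tags. Of family tags, 43.8%, 40.0%, 58.8% and 42.9% had A at position 15. For A at position 15 the Large White 3 month value, from 30 of 51 tags, was the highest (45.2% to 71.2%), and its interval overlapped that of the Large White 9 month library (37.9% to 48.0%). Both CpGs of the seed were intact in 47.9%, 62.2%, 47.1% and 45.4%. The first CpG was intact in 54.2%, 77.8%, 60.8% and 60.9% and the second in 83.3%, 82.2%, 80.4% and 76.8%. The second CpG was intact more often than the first in each of the 4 libraries, by little in Landrace x Duroc at 9 months.

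For the make-up of the family, 2 measures were tested between libraries, the share of tags with 1 mismatch and the share of transitions. Of member tags other than the seed, 36.8% (99 of 269) had 1 mismatch in the Large White 9 month library. For Landrace x Duroc the share was 30.6% (11 of 36) at 3 months and 46.9% (15 of 32) at 9 months, and for Large White at 3 months it was 33.3% (13 of 39). Two-sided Fisher's exact tests of the Large White 9 month library against each gave p of 0.580, 0.335 and 0.725, and an adjusted p of 0.725 for each over the 3 comparisons (Benjamini-Hochberg). Transitions made up 80.5% of mismatches in the Large White 9 month library (413 of 513), against 74.3%, 73.6% and 79.2% of 70, 53 and 77 in the others. Fisher's exact test gave adjusted p of 0.418, 0.418 and 0.760 there. For these 2 measures no difference was detectable at this depth, with intervals as wide as 18.0% to 46.9% in the other libraries. The tests compare libraries, not ages or animals, and mismatches of 1 tag are not independent.

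Members were also searched for the letters that begin the B box of tRNA-like promoters. The seed holds GGTTCGG, so the rule of 3 mismatches itself makes these motifs more frequent in members than in all tags. GGTTCGA, which G15A creates from the seed's GGTTCGG, was found in 30 members (23.4%) with 143 tags, and in 0.425% of all 17902 tags. GGTTCAA was found in 10 members (7.81%) with 33 tags, and in 0.274% of all tags. GGTTCGG was found in 31 members (24.2%) with 233 tags, and in 0.240% of all tags. At any one place in a tag the 3 motifs exclude each other, the reverse complements were found in 0 members, and a match is not a binding site. Outside the family 46 tags held GGTTCGA, with 10, 2, 10 and 29 tags by library. Another 39 held GGTTCAA, with 5, 6, 10 and 26.

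The number of near relatives of the seed was compared with that of other frequent tags. Of 87 tags with 50 or more copies, the seed had the most different tags within 3 mismatches, 127. The other 86 had a median of 11.5 and a range of 2 to 109. Among the 44 of them with 67 to 268 copies, which is near the seed's 134, the numbers ran from 3 to 49. With a limit of 2 mismatches the seed was level with the highest other tag of the 87, at 70 each. The near relatives of the seed held 2.81 tags for each seed tag, against a median of 0.118 for the other 86. On that measure the seed came after agctgtggtgtaggttg, with 3.22, and 3 more tags were above 1 (1.22, 1.21 and 1.15). Transitions made up 69.2% of the mismatches of the seed's relatives, counted once each. The median was 51.5% over 49 other tags with at least 10 relatives, of which 7 were at or above the seed. Of the seed's mismatches counted this way, 23.4% were the single change G15A, recounted in each of 67 members. The 69.2% thus depends on measuring from the seed rather than from G15A, and a share from G15A was not computed. Near relatives of an abundant tag can be sequencing or amplification errors of it, and their part here was not tested. None of the members lay nearer to another tag of 50 or more copies than to the seed. That outcome was fixed in advance, because no other tag of 50 or more copies lay within 5 mismatches of the seed. G15A, with 46 copies, was below that limit.

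**Figure D4:**
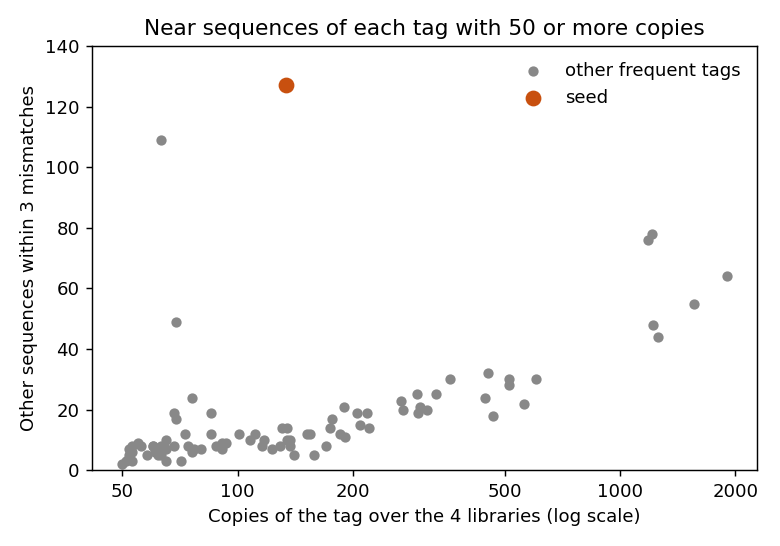
Number of other different tags within 3 mismatches (vertical axis) against copies over the 4 libraries (horizontal axis, log scale) for the 87 tags with 50 or more copies. The seed, with 134 copies and 127 near relatives, lies above the other tags, and 1 other tag reaches 109.

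Ditags, the pairs in which tags are joined before amplification, gave another view of the members. A ditag seen several times can be a single molecule copied by amplification. Repeated ditags held 4.17% (2 of 48) and 6.67% (3 of 45) of the family tags of the Landrace x Duroc animal, and 3.92% (2 of 51) and 6.83% (25 of 366) of those of the Large White animal. For all tags of the libraries the shares were 20.7%, 26.5%, 20.1% and 10.3%. The 13 repeated ditags that held a member had 13 different partners and no ditag held 2 members. Most copies of any were 4, for the seed joined to tagttcatcacagcagg and for C7T G9A G15A joined to tttttagaggcatatgg, both in the Large White 9 month library. With each repeated ditag counted once, the ratios of the family's share were 6.90, 6.83 and 6.24 in place of 7.72, 7.87 and 7.02.

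Other tags were ranked by how closely their layout over the 4 libraries followed the seed's, using the cosine of the library shares over the 454 other tags with 10 or more copies that are not members. The closest was taaggataacctgaccc (0.998), with 7, 9, 6 and 46 tags. Next came aattaaaaaaaaaaaaa (0.991), with 1, 5, 3 and 60 tags, and taataccaagaattgtt (0.990), with 1, 7, 2 and 66. Then gaggttcccaggctagg had 2, 0, 0 and 12 tags and tcgcaacagaagaaagg had 1, 0, 0 and 15, both at 0.982. They differ from the seed at 12 to 15 of 17 positions, compared base by base, and so are not members. Whether any comes from another part or the other strand of the same repeat was not tested. The median cosine was 0.491. Members with 10 or more copies had 0.957 to 0.996, with the exception of G6T G8A at 0.414. Apart from G15A and G6T G8A, these members had 2 to 6 tags in the other libraries together. They passed the limit of 10 only through Large White at 9 months, so the limit itself favoured a high cosine. With 4 points per tag the measure is a description.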

How the data were processed

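Total RNA was isolated with TRIZOL, per the labels' protocols. Per the file headers, the authors obtained tag counts with SAGEparser.pl 3.1 from 17-base tags of ditags of 32 to 36 bases, and repeated ditags were kept. The deposited percent values are each count over the library's valid tags, and they were used only to check the counts. Between 63.3% and 69.2% of unique ditags were under 34 bases, so that tags share their last bases. The sources used here give no aligner or genome build, and a planned match of tags to a reference was not run, because no sequences were used here.

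Counts were used as deposited. The seed was found by its 4 counts and members by Hamming distance up to 3. Named members were the seed and the 12 others with the most tags, and named like tags the 5 with the highest cosine. Single-member ratios have 0.5 added to each count. Shares have Wilson intervals and ratios of shares log-scale intervals at 95%. Fisher's exact tests were adjusted over 3 comparisons. Alternatives used TMM library sizes (edgeR 4.0.16) and size factors (DESeq2 1.42.0) in R 4.3.3. Other work used Python 3.11.15, SciPy 1.17.1, NumPy 2.4.6, edlib 1.3.9.post1 and matplotlib 3.10.9, and the scripts were tested on simulated data. Members, lists and tests were chosen with earlier results of these data known.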

Additional observations from a re-analysis of the deposited data

Results flagged for a closer look

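The log2 age changes of the 2 animals had opposite signs for the family and for G6T G8A, among 5 named items with tags in all 4 libraries. The family went from 48 to 45 tags in the Landrace x Duroc animal and from 51 to 366 in the Large White animal, log2 changes of -0.03 and 2.80, which differ by 2.83. The first of these is close to 0, with a ratio of 9 over 3 months of 0.982 (0.654 to 1.47), so it shows no fall. G6T G8A went from 7 to 4 and from 1 to 2 tags, log2 changes of -0.67 and 0.71, which differ by 1.38 and rest on very few tags. The changes are of shares with 0.5 added to each count. Neither difference was tested, since each animal gave 1 library per age and the family was chosen through these counts.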

How the results depend on the processing

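The 33 alternative ratios of the family's share are 3 for each alternative setting, and all share the Large White 9 month library. That library's family share stayed between 6.24 and 13.1 times that of the other libraries. TMM library sizes raised the ratios from 7.72, 7.87 and 7.02 (over Landrace x Duroc at 3 and 9 months and Large White at 3 months) to 12.02, 12.99 and 10.16, and DESeq2 size factors to 11.9, 13.1 and 10.3. Leaving out G6T G8A, an edit distance of 3 and tags of 15 bases were added for these ratios after the data were seen.

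Family shares depended on the mismatch limit by construction. With 1 mismatch they were 0.169%, 0.216%, 0.190% and 1.46% in the order of libraries above followed by Large White at 9 months. At 9 months the Large White share was 2.18% with 2 mismatches, 3.18% with 4 mismatches and 3.12% of the tags other than the 10 most frequent, and the Landrace x Duroc 3 month share was 0.478% with 4.

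Differences in make-up, the Large White 9 month library minus another, changed sign in places. None of 18 alternative values, 3 for each alternative setting, passed (adjusted p of 0.127 to 1 by Fisher's exact test). Counting different sequences once each, tags with 1 mismatch differed by -6.71 points from Landrace x Duroc at 3 months. Transitions then differed by -6.13, -0.964 and -0.964 points, and within 2 mismatches by -2.55 points from Large White at 3 months. The seed ranked 5 rather than 1 by near relatives when tags with 20 or more copies were ranked, behind G15A, G8A G15A, C7T G15A and 1 tag outside the family.

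Both ages came from the same animal in each line, but that is 1 pair per line, so no paired analysis was possible. The counts by library also chose the family and carry no test, and each test of make-up sets 1 library against 1 other. Each group held 1 library, so there was no replicate to leave out. The match of tags to a reference was not run. Depth limits single members most: with 45 to 51 family tags in 3 libraries, a form at 0 there has only an upper limit.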

Other observations

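Tags outside the family that had many near relatives were looked at after the counts of relatives had been seen. The tag agctgtggtgtaggttg, with 9, 12, 6 and 36 copies in the order Landrace x Duroc 3 and 9 months and Large White 3 and 9 months, had 109 relatives within 3 mismatches. It differs from the seed at 9 positions and shares 0 sequences with its family. Its own family had 44, 33, 37 and 152 tags, or 0.324%, 0.254%, 0.282% and 1.13% of the libraries. In Large White at 9 months the share was 3.94 times (3.096 to 5.02) the pooled share of the other 3, against 7.52 times (6.21 to 9.11) for the family of the seed. The tag agctgtggtgtaggtcg, with 21 copies, differs from agctgtggtgtaggttg at 1 base. It had 131 relatives, more than the seed's 127, and its family had 46, 37, 41 and 167 tags. Having many near relatives was thus not particular to the seed.

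Another tag, ggtgtggccctaaaaag, had 125 relatives and 0 in common with the members. Its family had 56, 12, 32 and 117 tags. In Large White at 9 months the share was 3.46 times (2.65 to 4.52) the pooled share of the others, but among those the levels were uneven, from 0.0924% at 9 months to 0.412% at 3 months in the Landrace x Duroc animal. None of these tags was matched to a gene or a repeat.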
